A study of Mus musculus with 45 samples.

Results

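The AP-1 and immediate early genes described here are 10 mouse genes, chosen by symbol with earlier results of these data known: Jun, Junb, Jund, Fos, Fosb, Fosl1, Fosl2, Jdp2, Egr1 and Ier2. Each symbol matched 1 of the 55335 rows of both deposited tables, so all 10 members were found. The values are FPKM, that is, sequenced fragments divided by transcript length and by library size, in 30 libraries of 2 mouse cell lines, the colon carcinoma line CT26 and the liver line Hepa1-6. In the knockdown experiment, CT26 lines with 1 of 3 short hairpin RNAs that target Soat1 (sh1, sh2 or sh3) were set against CT26 with shLucif, a control hairpin against luciferase. Hepa1-6 with a scrambled hairpin was set against libraries labelled Hepa1-6 shLucif, and all of these lines were collected 24 hours after seeding. In the drug experiment, wild-type CT26 and Hepa1-6 cells received for 48 hours either stk, a compound known here by that name alone, or its solvent DMSO. Each of the 10 groups held 3 libraries. For stk, the labels name 6 samples per line, of which 3 matched a column of values and were used. The labels do not say whether the libraries came from separate cultures, so p-values measure the spread between libraries of 1 line, which may be technical.

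AP-1 is a dimeric transcription factor. A Jun protein pairs with another Jun, with a Fos protein or with a related basic leucine zipper protein, and the dimer binds the short sequence TGANTCA or the longer TGACNTCA. Growth factors, stress and fresh serum switch on Fos, Fosb, Egr1, Ier2, Jun and Junb within minutes through MAP kinases and serum response factor, without new protein synthesis, which is why they are called immediate early genes, and most of these mRNAs decay soon after the stimulus. Fosl1 (FRA-1) and Fosl2 (FRA-2) come up later and can stay high in transformed cells.

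The promoters of Jun, Junb and Fosb, the members that passed the test with more than 1 hairpin, are shown beside that of Fos, which passed it with none, so that their sequences can be read together. Windows run from 250 bases before to 50 after a RefSeq gene start in GRCm38.p6, and capitals mark the CRE-like AP-1 site TGACNTCA and the CRE half-site TGACG, both of which are searched on both strands.
Jun (chr4:95052173-95052472, minus strand): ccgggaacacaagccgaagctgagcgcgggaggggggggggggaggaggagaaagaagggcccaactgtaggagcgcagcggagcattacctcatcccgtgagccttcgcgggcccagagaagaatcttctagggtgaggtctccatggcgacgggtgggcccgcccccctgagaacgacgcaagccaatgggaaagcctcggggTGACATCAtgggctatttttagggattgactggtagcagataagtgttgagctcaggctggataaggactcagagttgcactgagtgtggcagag
Junb (chr8:84978699-84978998, minus strand): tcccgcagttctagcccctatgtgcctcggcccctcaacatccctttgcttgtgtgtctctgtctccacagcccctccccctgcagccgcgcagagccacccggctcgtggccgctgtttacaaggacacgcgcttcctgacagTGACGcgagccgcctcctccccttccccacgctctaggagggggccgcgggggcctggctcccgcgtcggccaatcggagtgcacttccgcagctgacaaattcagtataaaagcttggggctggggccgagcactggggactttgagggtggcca
Fos (chr12:85473640-85473939, plus strand): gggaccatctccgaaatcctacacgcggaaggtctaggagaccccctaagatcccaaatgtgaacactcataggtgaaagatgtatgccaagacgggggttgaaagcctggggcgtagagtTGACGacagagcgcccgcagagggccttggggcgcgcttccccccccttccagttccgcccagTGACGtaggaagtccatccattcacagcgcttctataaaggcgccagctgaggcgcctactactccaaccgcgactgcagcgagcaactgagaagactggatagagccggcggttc
Fosb (chr7:19309996-19310295, minus strand): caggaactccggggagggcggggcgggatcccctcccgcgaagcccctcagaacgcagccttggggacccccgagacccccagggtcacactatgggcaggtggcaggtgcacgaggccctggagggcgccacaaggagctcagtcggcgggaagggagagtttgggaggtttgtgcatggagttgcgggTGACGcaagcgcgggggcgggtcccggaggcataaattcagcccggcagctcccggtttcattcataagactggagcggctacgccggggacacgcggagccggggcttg
The Jun window holds the CRE-like site TGACATCA, whose first base lies at -45. Junb holds TGACG at -106, Fosb at -60, and Fos holds it at -129 and at -66. Of 32851 mouse promoter windows of the same length, 8.83% hold TGACNTCA and 20.8% hold TGACG. None of the 4 windows holds the AP-1 site TGANTCA, found in 7.81% of all windows, or a CArG box, the serum response factor motif, found in 1.63%. A match, or the lack of one, describes the letters of these windows only, and sequence farther out was not searched. RefSeq windows were at hand for 7 of the 10 members.

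Soat1, the target of the hairpins and the gene of sterol O-acyltransferase 1, averaged 3.27 FPKM with sh1, 3.47 with sh2 and 2.59 with sh3, against 19.9 with shLucif in CT26. The libraries labelled Hepa1-6 shLucif stood apart from their label. Their Soat1 ran from 12.7 to 13.6 FPKM, while Hepa1-6 with the scrambled hairpin had 0.0977 to 0.182, and 6 of 15 hepatocyte markers averaged at least 1 FPKM in them, against 10 in the scramble libraries. CT26 expressed 1 to 4 of 11 intestinal epithelium markers at that level, with Epcam and Lgr5 listed at 0 under DMSO. In CT26 the number of genes at 1 FPKM or more was 11437 to 11481 with sh3, against 11159 to 11213 with shLucif. Mitochondrial genes took 9.12% to 11.1% of the summed FPKM with sh1, 10.6% to 10.9% with sh2 and 11.4% to 12.2% with sh3, against 11.6% to 12.1% with shLucif. The part of these differences in the results for the members was not tested. Libraries of the drug table had 11228 to 11407 genes at 1 FPKM or more. Read totals are unknown, so no counting interval could be given. In a culture, a change in the mRNA level per cell and a change in the share of cells that express a gene cannot be told apart.

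Differences were tested with limma on log2(FPKM + 1), and a gene was called where the p, adjusted over all genes tested by the Benjamini-Hochberg method, was under 0.05. Fold changes are on that log2 scale, with their standard error (SE), and understate the change of low genes.

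With sh3, Jun and Egr1 mRNA rose most in CT26, by 0.99 and 0.86 on the log2 scale, with smaller rises of Fosb, Ier2, Jdp2 and Fosl2 and small falls of Junb and Fosl1. With sh1, Fosb and Jun rose and Junb fell, and with sh2 Fosb rose and Junb fell. Of the 10 members tested, 8 were called with sh3, where 52.5% of all genes tested were called: 6 were higher (background 30.9%) and 2 lower (21.6%). With sh1 the count was 3 at a background of 37.8%, with 2 higher (19.1%) and 1 lower (18.7%). With sh2 it was 2 at a background of 38.9%, with 1 higher (18.9%) and 1 lower (20%). The counts for sh1 and sh2 lie below the share of all genes called. For sh3, 58.8% of the genes called across the table were higher, and 47.3% after the trend with exon length was removed. The 3 hairpins share the same 3 shLucif libraries.

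Jun, the founding member of the family and the one that most strongly activates transcription, had 35.5, 32.2 and 30.6 FPKM with sh1, 28.6, 33.1 and 29.9 with sh2, and 48.4, 50.1 and 60.7 with sh3, against 24.4, 25.6 and 28.1 with shLucif. All 9 hairpin libraries lay above all 3 shLucif libraries, and the sh3 libraries lay above all others. Jun rose by 0.99 with sh3 (SE 0.0911, limma adjusted p = 5.92e-06), and in 12 fits that each left out 1 library of the model its fold change stayed between 0.90 and 1.06. With sh1 it rose by 0.32 (SE 0.0911, adjusted p = 0.0173). That call was lost without shLucif library 1 (adjusted p = 0.065) and without the first sh1 library (adjusted p = 0.0671). With sh2 the difference of 0.22 was not called (SE 0.0911, adjusted p = 0.0763). It was called without sh3 library 3, which enters that fit through the shared estimate of spread (adjusted p = 0.0321).

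Junb, a weaker activator that often counters Jun, went the other way. It had 53.1, 50.5 and 52.9 FPKM with sh1, 53.0, 53.7 and 51.8 with sh2, and 54.2, 52.3 and 57.9 with sh3, against 61.3, 62.5 and 61.3 with shLucif. Every hairpin library was below every shLucif library, by a small margin. Junb fell with sh1 (-0.24, SE 0.0401, limma adjusted p = 0.000812), with sh2 (-0.22, SE 0.0401, adjusted p = 0.00135) and with sh3 (-0.17, SE 0.0401, adjusted p = 0.00414). The call for sh3 was lost under quantile normalization (-0.10, adjusted p = 0.0689).

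Jund, the broadly expressed Jun protein that is little induced by serum, was the most abundant of the 3 in CT26 and was not called with any hairpin. It averaged 104 ± 3.46 FPKM with sh1, 102 ± 5.69 with sh2 and 101 ± 12.9 with sh3, against 98.4 ± 2.64 with shLucif (SD, n = 3 each). The sh3 libraries spanned 90.7 to 115 FPKM and overlapped all other groups.

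**Figure D1:**
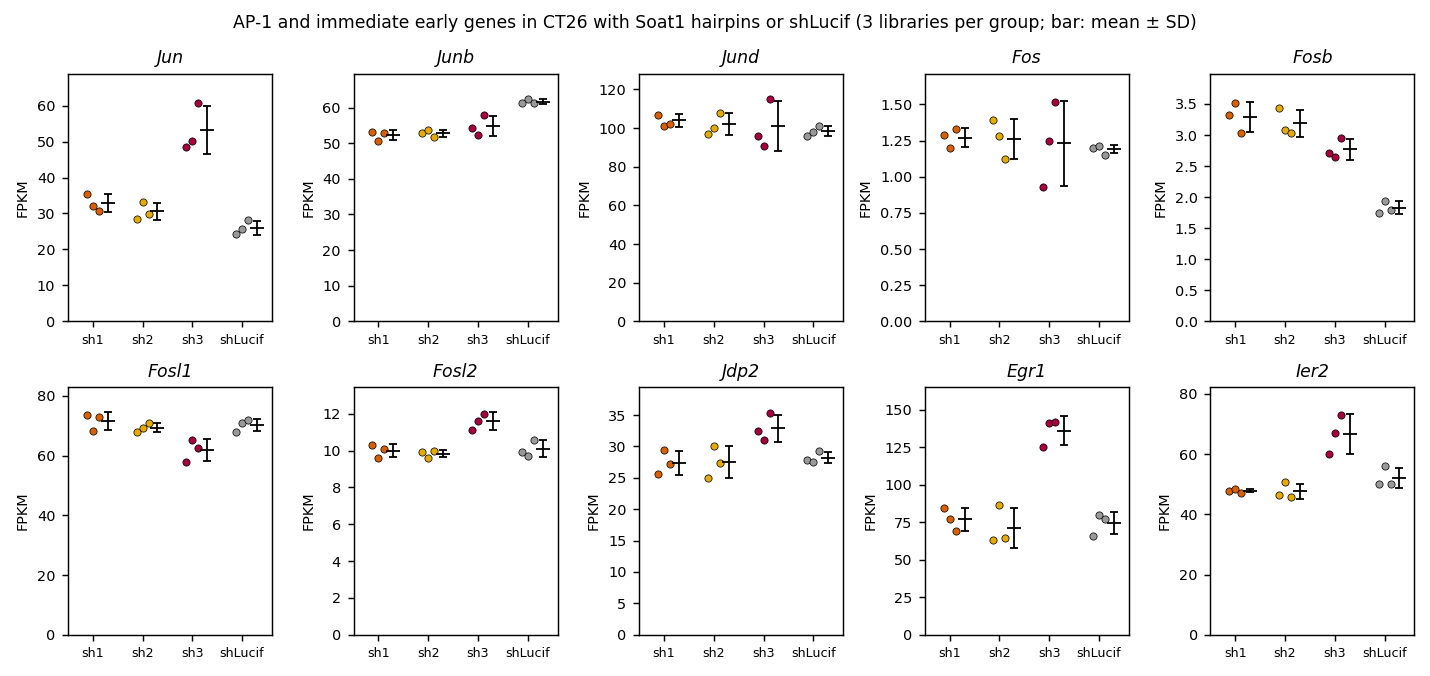
FPKM of the 10 members in CT26 with sh1, sh2 or sh3 and with shLucif; points are libraries, the bar beside them is the mean ± SD (n = 3), and each panel has its own axis from 0. The sh3 libraries of Jun (48.4 to 60.7 FPKM) and Egr1 (125 to 142) lie above all other libraries, and the 9 hairpin libraries of Fosb lie above the 3 shLucif libraries.

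Within the Fos family, Fosb was higher with all 3 hairpins. FosB pairs with Jun proteins and, in a truncated splice form known as delta-FosB, persists long after a stimulus. Fosb had 3.32, 3.51 and 3.03 FPKM with sh1, 3.44, 3.08 and 3.04 with sh2, and 2.71, 2.64 and 2.96 with sh3, against 1.75, 1.94 and 1.80 with shLucif. No hairpin library overlapped the control group. Fosb rose by 0.60 with sh1 (SE 0.0641, limma adjusted p = 3.43e-05), by 0.56 with sh2 (SE 0.0641, adjusted p = 5.12e-05) and by 0.41 with sh3 (SE 0.0641, adjusted p = 0.000264). Gene-level FPKM do not separate its splice forms, and at 2 to 4 FPKM the pseudocount of 1 shrinks these values; with a pseudocount of 0.1 the sh3 difference was 0.57.

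Fos, the classic serum-response gene and the usual partner of Jun, stayed near 1 FPKM. It had 1.29, 1.2 and 1.33 FPKM with sh1, 1.39, 1.28 and 1.12 with sh2, and 0.932, 1.25 and 1.52 with sh3, against 1.2, 1.21 and 1.15 with shLucif. The groups overlapped and Fos was not called with any hairpin; its difference with sh3 was 0.02 (SE 0.0911, limma adjusted p = 0.856), and turned to -0.08 under quantile normalization and to -0.03 with the length trend removed.

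Fosl1 encodes FRA-1, a Fos protein without the strong activation domain of c-Fos that is frequently high in invasive carcinoma cells, and it made up most of the Fos family mRNA. It had 57.8, 65.3 and 62.7 FPKM with sh3, against 67.8, 71.0 and 71.8 with shLucif, with all sh3 libraries below the control. Fosl1 fell with sh3 (-0.18, SE 0.0485, limma adjusted p = 0.00873), a call lost under quantile normalization (adjusted p = 0.0888). It averaged 71.6 ± 2.89 FPKM with sh1 and 69.4 ± 1.59 with sh2, against 70.2 ± 2.1 with shLucif (SD, n = 3 each), and was not called there. Fosl2, encoding FRA-2, had 11.1, 11.6 and 12.0 FPKM with sh3, against 9.95, 9.72 and 10.6 with shLucif. It rose with sh3 (0.18, SE 0.0472, adjusted p = 0.00788). The call was lost under quantile normalization (adjusted p = 0.051) and with the length trend removed (adjusted p = 0.0538).

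Summed over its members, the Jun family had 209 ± 22.2 FPKM with sh3, against 186 ± 4.41 with shLucif, and the Fos family 77.5 ± 4.38 with sh3, against 83.3 ± 2.37 with shLucif (SD, n = 3 each). Jun supplied 25.4% ± 0.91 of the Jun family FPKM with sh3, 17.4% ± 0.84 with sh1 and 16.5% ± 1 with sh2, against 14% ± 0.67 with shLucif (SD, n = 3 each). Junb supplied 26.4% ± 1.4 with sh3, against 33.2% ± 0.88 with shLucif. Thus with sh3 Jun and Junb were listed at similar FPKM, while with shLucif Junb was the higher of the pair in all 3 libraries. Fosl1 supplied 79.9% ± 0.86 of the Fos family with sh3, against 84.3% ± 0.34 with shLucif, and the Jun to Fos family ratio was 2.74, 2.39 and 2.95 with sh3, against 2.25, 2.22 and 2.23 with shLucif. These shares are of mRNA per length and say nothing of protein.

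**Figure D2:**
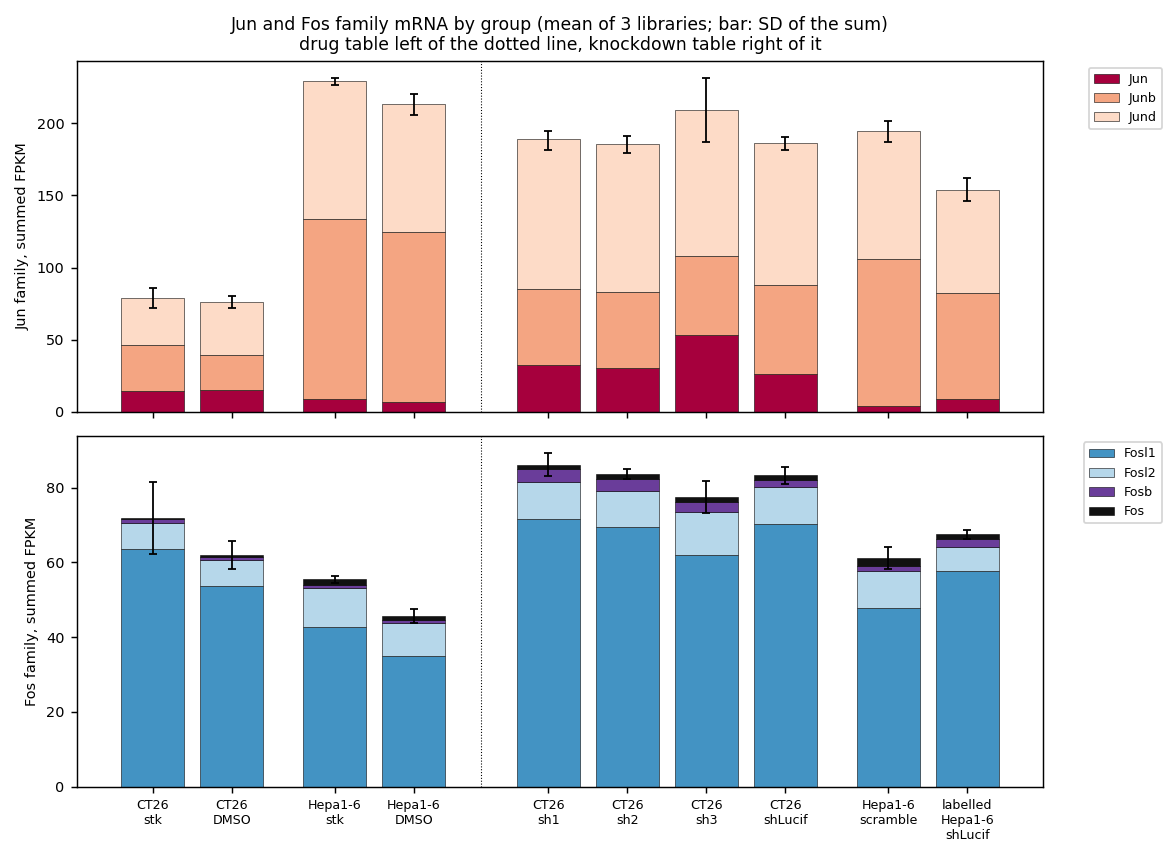
Summed FPKM of the Jun family (top) and the Fos family (bottom) in the 10 groups; stacked segments are group means of the members, bars the SD of the sum (n = 3), and the dotted line separates the separately made drug and knockdown tables. Jun takes 25.4% of its family with sh3 and 14% with shLucif, and Fosl1 makes up 76.7% to 88.3% of the Fos family in every group.

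Jdp2 encodes a small repressor that pairs with Jun proteins at AP-1 sites and lacks an activation domain. It had 32.4, 31.0 and 35.3 FPKM with sh3, against 27.8, 27.6 and 29.2 with shLucif, without overlap. Jdp2 rose with sh3 (0.21, SE 0.0719, limma adjusted p = 0.0269), and the call held in 8 of 12 fits that left out 1 library. It was lost without shLucif library 1 (adjusted p = 0.07) or 2 (0.0755), without sh3 library 1 (0.0511) or 3 (0.0989), and with no filter on low values (0.0633) or the length trend removed (0.0822). With sh1 and sh2 the differences were -0.04 each (SE 0.0719) and were not called.

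Egr1 and Ier2 are not AP-1 proteins but respond to the same inputs. Egr1 is a zinc finger transcription factor induced by MAP kinase signalling through serum response factor. It had 84.7, 76.9 and 69.2 FPKM with sh1, 63.2, 86.8 and 64.4 with sh2, and 125, 141 and 142 with sh3, against 65.9, 79.8 and 77.3 with shLucif. The sh3 libraries stood above all 9 others, and those 9 overlapped one another. Egr1 rose by 0.86 with sh3 (SE 0.122, limma adjusted p = 0.000136), and stayed between 0.78 and 0.92 when any 1 library was left out. With sh1 it differed by 0.05 (SE 0.122, adjusted p = 0.792) and with sh2 by -0.07 (SE 0.122, adjusted p = 0.703).

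Ier2, a small nuclear protein known as a rapid growth factor response gene, had 60.0, 66.9 and 73.1 FPKM with sh3, against 50, 56.0 and 50.2 with shLucif. It rose by 0.35 with sh3 (SE 0.0697, limma adjusted p = 0.00149), and the groups did not overlap. With sh1 and sh2 Ier2 averaged 47.8 ± 0.545 and 47.6 ± 2.54 FPKM, both listed below the 52.1 ± 3.45 of shLucif (SD, n = 3 each) and neither called.

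The hairpins were then compared with one another, a contrast that does not use the shared control. Set against sh1 and sh2 averaged, sh3 differed at 7 of 10 members, at a background of 60.2% of all genes. Of these, 5 were higher with sh3 (background 35.5%) and 2 lower (24.7%). Egr1 was higher with sh3 by 0.87 (SE 0.106, limma adjusted p = 3.01e-05), Jun by 0.72 (SE 0.0789, adjusted p = 1.34e-05) and Ier2 by 0.47 (SE 0.0603, adjusted p = 4.67e-05). Jdp2 (0.25) and Fosl2 (0.20) were also higher with sh3, with adjusted p = 0.00434 and 0.0013. Fosl1 was lower with sh3 (-0.19, adjusted p = 0.00255), and not called under quantile normalization (-0.09, adjusted p = 0.0826). Fosb was lower with sh3 (-0.17, adjusted p = 0.0221), so its rise over shLucif was smaller with the hairpin that left least Soat1. That difference was not called without sh3 library 1 (adjusted p = 0.0715) or 2 (adjusted p = 0.092), or when the whole table was fitted in 1 model (adjusted p = 0.0797). Junb differed by 0.06 between these hairpins (SE 0.0348, adjusted p = 0.161) and was called under quantile normalization (0.12, adjusted p = 0.021). Jund differed by -0.03 (SE 0.0657, adjusted p = 0.677) and was called without sh3 library 3 (-0.13, adjusted p = 0.031). Soat1 itself was lower with sh3 than over the other hairpins (-0.28, SE 0.0358, adjusted p = 4.12e-05). Over the mean of the 3 hairpins against shLucif, 4 of 10 members were called at a background of 43.1%, 3 higher (23.4%) and 1 lower (19.8%). Those were Fosb (0.53), Jun (0.51) and Egr1 (0.28, SE 0.0999, adjusted p = 0.0407) on the higher side and Junb (-0.21) on the lower. Of the single hairpins Egr1 was called with sh3, and its call over the mean held in 5 of 12 fits that left out 1 library. It was lost without any 1 shLucif library (adjusted p = 0.2, 0.0508 and 0.0711), without the first or second sh1 library (0.0623 and 0.0586), or without sh3 library 2 or 3 (0.0634 and 0.0628).

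Some markers of other cell types moved beside these members, and their sums rested mostly on few genes. The summed FPKM of 7 fibroblast markers lay between 123 and 128 with sh1, 113 and 122 with sh2, and 179 and 186 with sh3, against 127 to 129 with shLucif. The sum with sh3 was carried by the collagen genes Col1a1, with a mean of 56 FPKM against 18.6 with shLucif (1.54, SE 0.0517, limma adjusted p = 7.45e-09), and Col1a2, with 108 against 90.8. Of 4 fibroblast markers tested, 3 were higher with sh3 and 0 lower, where 30.9% of all genes were higher and 21.6% lower. These were Col1a1, Col1a2 and Col3a1 (0.26, SE 0.0955, adjusted p = 0.0381). Col3a1 was also higher with sh1 (0.71, adjusted p = 0.000183) and sh2 (0.47, adjusted p = 0.00281). It was lower with sh3 than with the mean of sh1 and sh2 (-0.32, SE 0.0827, adjusted p = 0.00558). Col1a2 was lower with sh1 (-0.23) and sh2 (-0.28), and Col1a1 was not called with either. The receptor gene Pdgfrb was not called with sh3 (-0.07, SE 0.0577), and Thy1 was listed at 0 in all sh3 and shLucif libraries. Dcn went the other way, with 0.058 to 0.123 FPKM with sh3, against 0.584 to 0.856 with shLucif. It stayed under 1 FPKM in these libraries and was not tested. The sum of 11 intestinal epithelium markers lay between 27.2 and 36.7 FPKM with sh1, 25.4 and 29.8 with sh2, and 44.4 and 48.8 with sh3, against 24.6 to 24.7 with shLucif. Most of it was the keratin gene Krt20, with a mean of 41.9 FPKM with sh3, against 21.1 with shLucif. Of 4 intestinal markers tested, 3 were higher with sh3 and 1 lower, beside the same 30.9% and 21.6% of all genes. Krt20 rose by 0.95 (SE 0.105), Cdx2 by 0.80 (SE 0.117, adjusted p = 0.000171) and Cdh17 by 0.70 (SE 0.0599, adjusted p = 3.57e-06). Cdx2 was also called higher with sh1 (0.63) and sh2 (0.48), as was Cdh17 (0.17 and 0.27). Krt20 was called with sh1 (0.35) but not with sh2 (0.16). Against the mean of sh1 and sh2, Krt20 (0.70) and Cdh17 (0.48) were higher with sh3. Cdx2 was not called in that comparison (0.24, SE 0.101, adjusted p = 0.0566). Cdx2 and Cdh17 averaged 1.31 and 1.34 FPKM with sh3. Another keratin gene, Krt18, was lower with sh3 (-0.36, SE 0.0808, adjusted p = 0.00305) and with sh2 (-0.54, SE 0.0808, adjusted p = 0.000388). With sh1 it was not called (-0.22, adjusted p = 0.0562). Lgr5 was listed at 0 in all sh3 and shLucif libraries. Leukocyte markers summed to 5.43 to 5.72 FPKM with sh3, against 6.79 to 7.3 with shLucif, and endothelium markers stayed under 0.3 FPKM with sh3 and with shLucif. The part of these shifts in the differences of the members was not tested.

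In the drug experiment, no member was called in CT26 with stk, and 3 were called in Hepa1-6, all higher. The limma test called 0 of 9 members in CT26, at a background of 0.748% of all genes. Of the genes called across the table there, 17.6% were higher, and 30.2% under quantile normalization or 28.8% with the length trend removed. At an unadjusted p under 0.05, 5 of 9 members passed in CT26, 4 of them higher, and 5 of 9 in Hepa1-6, 5 of them higher. The share of all genes at that unadjusted threshold was not computed, so these counts have no background. In Hepa1-6, 3 of 9 were called (3 higher and 0 lower), where 1.53% of all genes were called in either direction with 0.683% higher and 0.849% lower. Fos in CT26 and Fosb in Hepa1-6 fell under the filter on low values (at least 1 FPKM in at least 3 libraries) and were not tested.

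In Hepa1-6, Jun had 9.34, 8.41 and 8.88 FPKM with stk, against 7.13, 6.56 and 6.48 with DMSO. Fosl1 had 41.4, 43.5 and 43.5 FPKM with stk, against 35.9, 33.3 and 36.0 with DMSO. Jdp2 had 8.42, 7.28 and 7.24 FPKM with stk, against 4.99, 5.66 and 5.48 with DMSO. For each of these genes, an activator, a Fos family member and a repressor of AP-1, every stk library was above every DMSO library. The same held for Junb, Jund, Fos and Fosl2, which were not called. How often all genes separate in this way, in either line, was not computed. The fold changes were 0.35 for Jun (SE 0.0593, limma adjusted p = 0.0468), 0.28 for Fosl1 (SE 0.0446, adjusted p = 0.0443) and 0.44 for Jdp2 (SE 0.0747, adjusted p = 0.0481). All 3 calls were lost in each of the 6 fits that left out 1 library, where the adjusted p ran from 0.0699 to 0.141, and with no filter on low values. The fold changes themselves stayed between 0.32 and 0.39 for Jun, 0.24 and 0.30 for Fosl1 and 0.38 and 0.47 for Jdp2 in those 6 fits. Fosl2 had 10.9, 9.52 and 10.4 FPKM with stk, against 9.18, 8.83 and 8.16 with DMSO. Its ranges did not overlap either, but the difference of 0.21 was not called (SE 0.0671, adjusted p = 0.128).

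Among the early responders of Hepa1-6, Egr1 averaged 13.0 ± 0.725 FPKM with stk and 12.9 ± 0.552 with DMSO (SD, n = 3 each), a difference of 0.01 (SE 0.0558, limma adjusted p = 0.961). Ier2 averaged 36.6 ± 2.59 FPKM with stk and 35.2 ± 0.706 with DMSO. Junb and Jund, which make up most of the Jun family there, differed by 0.08 and 0.11 and were not called, although their groups did not overlap. Fos had 1.54, 1.46 and 1.49 FPKM with stk, against 1.24, 1.04 and 1.38 with DMSO, and its difference of 0.17 was not called (SE 0.0819, adjusted p = 0.255). Its groups did not overlap. Fosb had 0.698, 0.838 and 1.25 FPKM with stk, against 0.777, 0.577 and 0.814 with DMSO, with overlap.

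**Figure D3:**
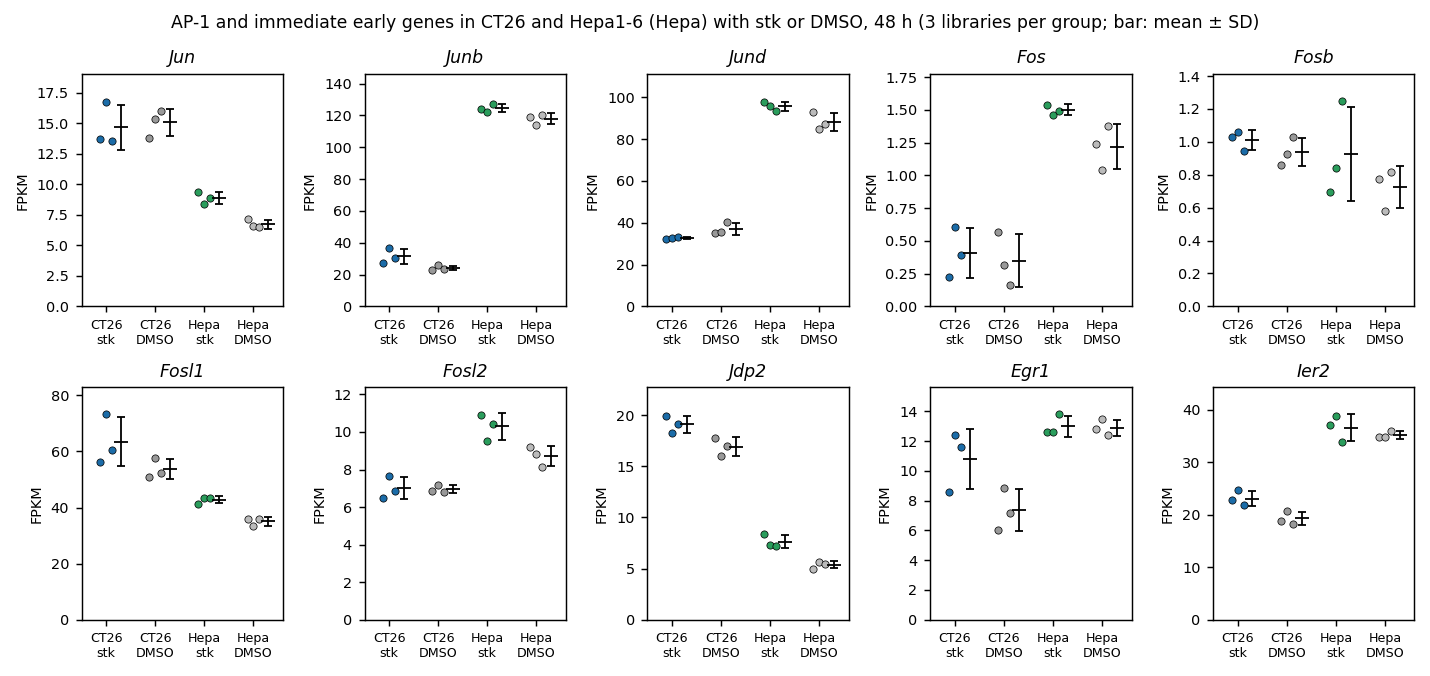
FPKM of the 10 members after 48 hours of stk or DMSO in CT26 and in Hepa1-6 (Hepa on the axis); points are libraries, the bar beside them is the mean ± SD (n = 3), and each panel has its own axis from 0. Jun, Fosl1 and Jdp2 are higher with stk in every Hepa1-6 library, as are Junb, Jund, Fos and Fosl2, which were not called. The lines differ more than the treatments do in Junb and Jund.

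In CT26 the largest difference was that of Egr1, with 8.59, 12.4 and 11.6 FPKM with stk, against 6.03, 8.86 and 7.18 with DMSO. The groups overlapped, since the second DMSO library lay above the first stk library. The difference of 0.50 was not called (SE 0.164, limma adjusted p = 0.246). Junb had 27.2, 36.8 and 30.4 FPKM with stk, against 23.1, 25.9 and 23.4 with DMSO (0.36, SE 0.108, adjusted p = 0.208). Ier2 had 22.9, 24.7 and 21.8 FPKM with stk, against 18.9, 20.7 and 18.3 with DMSO (0.25, SE 0.0648, adjusted p = 0.167). Both genes were higher in all stk libraries without overlap and were not called. Jdp2 had 19.9, 18.3 and 19.1 FPKM with stk, against 17.8, 16.0 and 17.0 with DMSO (0.16, SE 0.0542, adjusted p = 0.247), also without overlap. Jund was the one member lower in every stk library, with 32.3, 32.8 and 33.4 FPKM with stk, against 35.1, 35.7 and 40.5 with DMSO (-0.17, SE 0.0586, adjusted p = 0.27). Jun, Fosb, Fosl1 and Fosl2 overlapped between stk and DMSO in CT26, with differences of -0.04, 0.05, 0.23 and 0.01. Fos had 0.222, 0.605 and 0.391 FPKM with stk, against 0.568, 0.318 and 0.16 with DMSO.

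The difference between the lines in the stk response, CT26 minus Hepa1-6, was tested as an interaction. It was called by limma for 0 of 10 members, at a background of 0.304%. At an unadjusted p under 0.05, 6 members passed, and the share of all genes at that threshold was not computed. The largest were Egr1 (0.50, SE 0.189, adjusted p = 0.292) and Jun (-0.39, SE 0.116, adjusted p = 0.185). So the calls in Hepa1-6 and their absence in CT26 are not shown to differ between the lines.

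**Figure D4:**
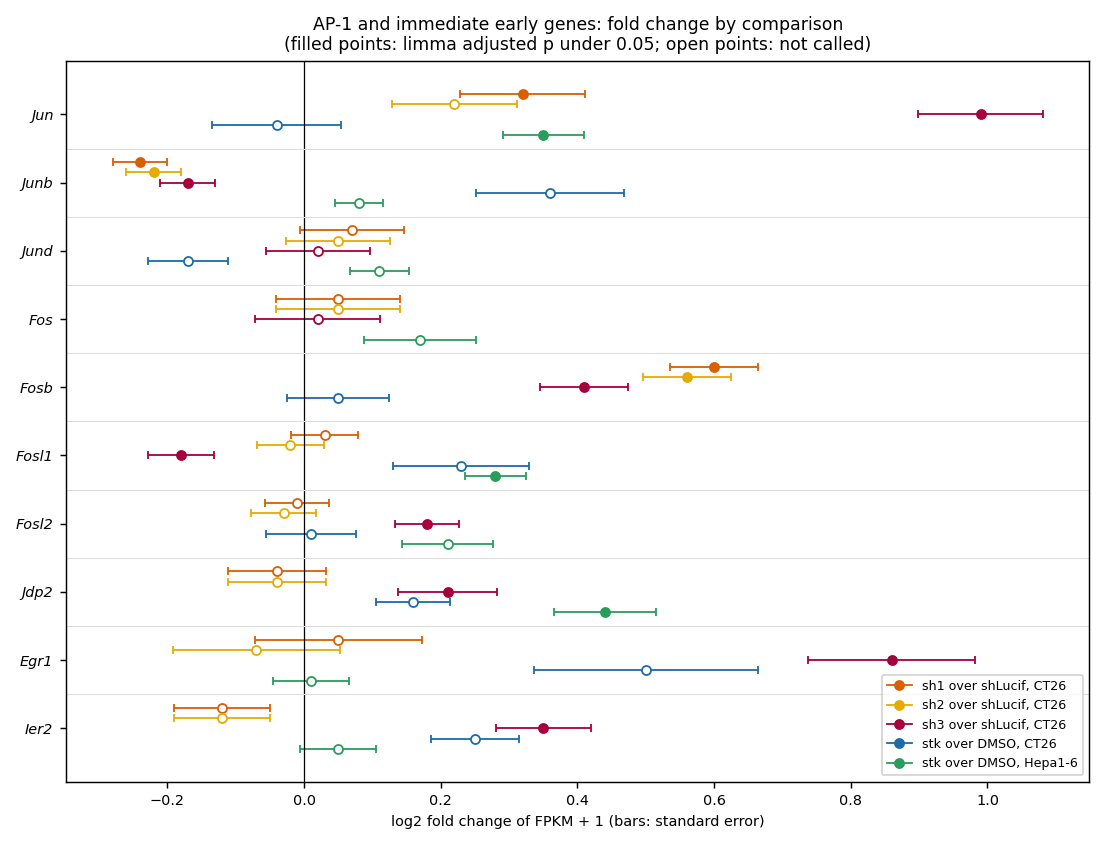
Fold change of each member on the log2(FPKM + 1) scale for sh1, sh2 and sh3 over shLucif in CT26 and for stk over DMSO in CT26 and Hepa1-6; bars are standard errors and filled points passed limma at an adjusted p under 0.05. Jun (0.99) and Egr1 (0.86) with sh3 lie farthest from 0, and Junb lies below 0 with all 3 hairpins.

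The lines themselves were then compared. Under DMSO, 9 of 10 members were called between CT26 and Hepa1-6 at a background of 76.8% of all genes, so the count is what most genes of the table show. In CT26, 3 were higher (background 38.5%) and 6 lower (38.4%). Each line is 1 line, and the p covers the spread between its libraries. Junb had 23.1, 25.9 and 23.4 FPKM in CT26, against 119, 114 and 120 in Hepa1-6 (-2.24, SE 0.0869, limma adjusted p = 7.56e-10). Jund had 35.1, 35.7 and 40.5 FPKM in CT26, against 93.1, 84.6 and 87.3 in Hepa1-6 (-1.23, SE 0.0531, adjusted p = 1.90e-09). Jun went the other way, with 13.8, 15.4 and 16.0 FPKM in CT26, against 7.13, 6.56 and 6.48 in Hepa1-6 (1.06, SE 0.0823, adjusted p = 3.48e-07). The repressor Jdp2 was higher in CT26 by 1.49 (SE 0.0657, adjusted p = 2.26e-09) and Fosl1 by 0.60 (SE 0.0836, adjusted p = 5.20e-05). The early responders Ier2 (-0.84), Egr1 (-0.75) and Fos (-0.73) were lower in CT26, as was Fosl2 (-0.29, adjusted p = 0.00196). Fosb was not called (0.17, SE 0.0983, adjusted p = 0.133), but was without Hepa1-6 stk library 3 (adjusted p = 0.046).

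As a result the make-up of the Jun family is unlike in the lines. Jun took 19.7% ± 0.47 of the family in CT26 and 3.16% ± 0.12 in Hepa1-6 under DMSO (SD, n = 3 each). The Jun to Fos family ratio was 1.21, 1.16 and 1.33 in CT26, against 4.65, 4.68 and 4.62 in Hepa1-6. Across the 4 drug groups the order of mean levels was Hepa1-6 stk, Hepa1-6 DMSO, CT26 stk and CT26 DMSO for Junb, Fos, Fosl2, Egr1 and Ier2. It was CT26 stk, CT26 DMSO, Hepa1-6 stk and Hepa1-6 DMSO for Fosb, Fosl1 and Jdp2, and for Jun and Jund the CT26 DMSO mean was above that of CT26 stk. Of neighbours in these orders, the 2 Hepa1-6 groups overlapped for Egr1, Ier2 and Fosb, and the 2 CT26 groups for Fos, Fosb, Fosl1, Fosl2 and Egr1, as well as for Jun. The CT26 DMSO and Hepa1-6 stk groups overlapped for Fosb.

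In the knockdown table, Hepa1-6 with the scrambled hairpin was set against the libraries labelled Hepa1-6 shLucif, whose markers and Soat1 level stood apart from that label. All 10 members were called at a background of 68.2% of all genes, with 4 higher (31.4%) and 6 lower (36.8%) with scramble. Jun had 3.97, 4.96 and 3.56 FPKM with scramble, against 8.77, 9.23 and 9.60 in the libraries labelled shLucif (-0.99, SE 0.102, limma adjusted p = 0.000137). Jdp2 had 6.44, 6.89 and 6.46 FPKM with scramble, against 10.9, 11.1 and 12.1 in the libraries labelled shLucif (-0.70, SE 0.0556, adjusted p = 3.64e-05). Fosl2 had 9.44, 9.70 and 10.8 FPKM with scramble, against 6.21, 6.11 and 6.68 in those labelled shLucif (0.58, SE 0.064, adjusted p = 0.000197). None of these groups overlapped. Junb (0.47), Fos (0.38) and Jund (0.31) were higher with scramble as well, and Fosb (-0.39), Egr1 (-0.34), Fosl1 (-0.27) and Ier2 (-0.22) were lower. The Fosb call was lost without scramble library 1 (adjusted p = 0.076) or 2 (0.0636), and the Ier2 call without any 1 scramble library (0.0596, 0.0661 and 0.0845). The summed FPKM of 15 hepatocyte markers lay between 449 and 485 with scramble and between 95.2 and 98.3 in the libraries labelled shLucif. That of 11 intestinal epithelium markers lay between 2060 and 2130 with scramble and between 288 and 303 in those labelled shLucif, with all 7 tested higher with scramble. Of the fibroblast markers, Dcn averaged 257 FPKM with scramble and 17.1 in those labelled shLucif (3.83, SE 0.0598), Col1a1 0.154 and 13.7 (-3.66, SE 0.0779) and Col1a2 0.0353 and 15.4 (-3.99, SE 0.0643). The part of these shifts, or of the Soat1 level, in the differences of the members was not tested.

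Other immediate early genes moved in both directions with sh3. Of 28 other immediate early genes tested, 11 were higher and 11 lower with sh3 against shLucif, and the list's median fold change was -0.04, against 0.04 for all genes tested, of which 30.9% were higher and 21.6% lower. The largest rises were in Cyr61 and Ctgf, which encode secreted matricellular proteins, and in Klf2, a Krüppel-like transcription factor. Cyr61 had 187, 202 and 224 FPKM with sh3, against 51.5, 54.7 and 58.9 with shLucif (1.87, SE 0.0715, limma adjusted p = 1.63e-08). Ctgf had 34.0, 34.0 and 36.8 FPKM with sh3, against 11.6, 11.6 and 11.2 with shLucif (1.52, SE 0.059). Klf2 rose by 1.36 (SE 0.0507). The largest falls were those of the orphan nuclear receptor Nr4a2 (-1.18, SE 0.116), the growth arrest gene Gadd45a (-0.81, SE 0.133) and the polo-like kinase Plk3 (-0.69, SE 0.0978). With sh1, 9 of 28 were higher and 5 lower (all genes 19.1% and 18.7%), and with sh2, 10 and 6 (all genes 18.9% and 20%). Both hairpins went against sh3 at some of these genes. Nr4a2 rose with sh1 (0.60, SE 0.116, adjusted p = 0.00206) and sh2 (0.62, SE 0.116, adjusted p = 0.0016), and Ctgf fell with both (-0.43 and -0.44, SE 0.059 each). In direct comparison with the mean of sh1 and sh2, Ctgf was higher with sh3 by 1.96 (SE 0.0511, adjusted p = 3.01e-10) and Nr4a2 lower (-1.79, SE 0.101, adjusted p = 9.24e-08).

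Of 24 genes tested that encode the kinases and serum-response factors that feed these genes, 11 were higher and 4 lower with sh3, with a median of 0.14, where 30.9% of all genes tested were higher and 21.6% lower, with a median of 0.04. Elk3, a ternary complex factor that binds beside serum response factor, had 28.1, 27.0 and 23.1 FPKM with sh3, against 10.9, 10.5 and 11.6 with shLucif (1.17, SE 0.0662, limma adjusted p = 2.05e-07). It also rose with sh1 (0.49, SE 0.0662) and with sh2 (0.46, SE 0.0662). Mkl1, an actin-regulated coactivator of serum response factor, rose by 0.88 with sh3 (SE 0.0513), and the kinase genes Mapk14 (0.87, SE 0.315, adjusted p = 0.0371) and Rps6ka3 (-1.19, SE 0.124, adjusted p = 1.53e-05) moved in opposite directions. With sh1, 5 were higher and 3 lower (all genes 19.1% and 18.7%), and with sh2, 6 and 2 (all genes 18.9% and 20%).

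Feedback inhibitors of MAP kinase signalling, whose mRNAs follow pathway activity in many cells, gave 6 higher and 2 lower of 15 tested with sh3, with a median of 0.13, beside 30.9% and 21.6% of all genes and their median of 0.04. Dusp1, a phosphatase of MAP kinases, had 14.6, 16.8 and 18.6 FPKM with sh3, against 8.89, 8.15 and 8.69 with shLucif (0.88, SE 0.0778, limma adjusted p = 4.68e-06). Dusp4, a related phosphatase, fell (-0.77, SE 0.0505, adjusted p = 5.51e-07). With sh1 and with sh2, 6 were higher and 1 lower (all genes 19.1% and 18.7% with sh1, and 18.9% and 20% with sh2), the lower gene being Spred3 in both (-0.57 and -0.59, SE 0.0663 each).

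A list of other leucine zipper genes, some of which encode partners of Jun or Fos proteins, was read as well. With sh3 it gave 0 higher and 7 lower of 15 tested and a median of -0.20. Of all genes, 30.9% were higher and 21.6% lower, with a median of 0.04. The most abundant by FPKM in CT26 shLucif were Atf4, Atf5 and Ddit3, transcription factors of the stress response. Ddit3 averaged 91.7 ± 9.41 FPKM with sh3 and 154 ± 3.87 with shLucif (SD, n = 3 each), a fold change of -0.74 (SE 0.0661, limma adjusted p = 4.68e-06). Atf4 averaged 244 ± 6.06 FPKM with sh3 and 328 ± 34.5 with shLucif (-0.42, SE 0.111, adjusted p = 0.00824). Atf5 fell with sh3 (-0.33, SE 0.0482, adjusted p = 0.000155), sh1 (-0.45, SE 0.0482, adjusted p = 3.48e-05) and sh2 (-0.40, SE 0.0482, adjusted p = 7.43e-05). Mafk, a small Maf protein, rose with sh1 (0.74, SE 0.0478) and sh2 (0.73, SE 0.0478), and was lower with sh3 than with their mean (-0.79, SE 0.0414, adjusted p = 4.75e-08).

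Genes widely described as AP-1 targets gave 9 higher and 9 lower of 23 tested with sh3, with a median of 0.01, beside 30.9% and 21.6% of all genes and their median of 0.04. Itgb4, an integrin subunit, rose by 1.51 with sh3 (SE 0.0825) by the limma test. The epidermal growth factor family ligand Areg had 28.2, 30.5 and 43.9 FPKM with sh3, against 107, 105 and 103 with shLucif (-1.62, SE 0.133, adjusted p = 2.87e-06). The chromatin protein gene Hmga2 fell as well (-1.35, SE 0.0699), and the cytokine gene Il11 fell with sh3 (-1.12, SE 0.153), sh1 (-1.56, SE 0.153) and sh2 (-1.54, SE 0.153). With sh1 and with sh2, 12 were higher and 6 lower (all genes 19.1% and 18.7% with sh1, and 18.9% and 20% with sh2).

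With stk few genes of these 5 lists were called. In CT26 limma called 0 of 98, at a background of 0.748% of all genes. At an unadjusted p under 0.05, 24 of 98 passed in CT26 and 31 of 101 in Hepa1-6. The share of all genes at that threshold was not computed. In Hepa1-6 limma called 3 of 101, at a background of 1.53%. These were the early genes Phlda1 (0.35, SE 0.0302, limma adjusted p = 0.0183) and Zfp36l1 (0.26, SE 0.0386, adjusted p = 0.0422) higher and the metallothionein gene Mt2 (-0.66, SE 0.0884, adjusted p = 0.042) lower.

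Genes whose pattern was most like that of the members with the widest range of group means were taken over the 12 CT26 knockdown libraries by Pearson r. The 12 libraries fall into 4 groups and share the table and its scaling, so r describes these groups and has no test. For Jun, Iqgap3 (0.978), Polm (0.976) and Nid1 (0.975) were most alike, and Ahnak2 (-0.977), Tomm34 (-0.977) and Ube2q1 (-0.971) most opposite. For Egr1, Sh3bp5 (0.975), Cdc42ep1 (0.972) and Ipo11 (0.972) were most alike, and Thyn1 (-0.969), Cycs (-0.967) and Atp6v1h (-0.966) most opposite. For Fosb, Serinc3 (0.978), Psap (0.976) and Mras (0.975) were most alike, and Setd7 (-0.983), Dnaja2 (-0.983) and Celf1 (-0.976) most opposite. None of these genes is among the 10 members.

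In the GENCODE annotation of GRCm38, some members share exon sequence with a gene on the other strand. Fosl1 (chr19:5447547-5455946) shares 1163 bases with Ccdc85b, Jund (chr8:70698949-70700616) shares 877 with Gm11175, and Jun (chr4:95049034-95052222) shares 232 with Junos. Junb shares 173 bases with Prdx2 and Jdp2 shares 165 with Gm47863. Whether the counting used strand is not given in the sources used here, so reads of such pairs may not be told apart. Ccdc85b had 4.96, 11.6 and 4.66 FPKM with sh3 and 8.76, 8.41 and 3.44 with sh2. It had 3.7, 3.61 and 3.43 with sh1 and 3.75, 3.84 and 4.01 with shLucif. Fosl1 averaged 61.9 FPKM with sh3, 69.4 with sh2, 71.6 with sh1 and 70.2 with shLucif. Prdx2 averaged 64.3 ± 0.378 FPKM with sh3 and 52.0 ± 2.04 with shLucif. Junos averaged 0.781 ± 0.138 FPKM with sh3, 0.669 ± 0.0877 with sh1 and 0.707 ± 0.0107 with sh2, against 0.37 ± 0.0864 with shLucif (SD, n = 3 each).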

How the data were processed

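Total RNA was isolated with TRIzol, sequenced in pairs on an Illumina HiSeq and trimmed with Skewer, per the labels' protocols, which mention a SMARTer kit for some samples. The submitters' processing notes list GRCm38, HISAT2, STAR, DESeq2 and edgeR; which of these made the FPKM is not given in the sources used here. The authors deposited FPKM as 1 table per experiment, without counts, so depth is unknown; the lowest FPKM steps give a relative depth of 0.918 to 1.154 (drug) and 0.846 to 1.245 (knockdown). Each table's name points to the other experiment, so the column names decided which was which. Of 45 labelled samples, 30 matched a column, the 3 of sh1 by group only; 21 columns matched no label and were not used. Hepa1-6 Soat1 hairpins were not analysed here. Each experiment carries a single batch date.

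Differences were tested with limma 3.58.1 (trend, R 4.3.3) on log2(FPKM + 1), with 1 model per line and experiment and a 4-group model between lines. Genes with at least 1 FPKM in 3 libraries were tested, two-sided, with Benjamini-Hochberg adjustment over all of them at 0.05. An exact permutation test of 3 against 3 cannot go under 0.1 and was not used. The fits were tested on simulated data with 200 changed genes. The 10 members and the lists were chosen with earlier results of these data known. All members were described, and from the lists the called genes with the largest changes each way and the most abundant other leucine zipper genes. The result for 1 gene of the lists is not reported here. Map2k7 and Itgam matched more than 1 row and were left out. Alternatives were other pseudocounts, filters and scalings, a common model, a replicate block and leaving out each library.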

Additional observations from a re-analysis of the deposited data

How the results depend on the processing

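Of 98 fold changes of the members, 46 were called, and of their 765 refits under other settings 707 kept direction and call and 58 lost the call. The 3 calls for stk in Hepa1-6 were lost (0 called) with no filter on low values, with a replicate block, and in every fit that left out 1 library (0 to 0 called). With sh2, 1 member was called at a minimum of 5 FPKM, where Fosb, at most 3.51 FPKM in that model, could not be tested. With sh3, 5 were called under quantile normalization, where Fosl1, Fosl2 and Junb lost the call. The cause of those losses with sh3 was not tested. Signs turned for small uncalled values. With the exon length trend removed, an alternative added after seeing the data, Egr1 with stk in Hepa1-6 was -0.01, and with sh3 Fos was -0.03 and Jund -0.01. Under quantile normalization Fos was -0.08 with sh3, and Jund 0.04 for sh3 against sh1 and sh2. Leaving out 1 library gave these ranges: with stk in CT26, Fosl2 -0.05 to 0.05 and Jun -0.13 to 0.01; in Hepa1-6, Egr1 -0.04 to 0.04; for the difference between lines, Fos -0.21 to 0.0, Fosb -0.19 to 0.01 and Fosl1 -0.16 to 0.03. With sh1 they were Egr1 -0.03 to 0.12, Fosl2 -0.04 to 0.02 and Jdp2 -0.09 to 0.01, and with sh2 Egr1 -0.21 to 0.01, Fosl1 -0.04 to 0.0, Fosl2 -0.06 to 0.0 and Jdp2 -0.1 to 0.02. With sh3 they were Fos -0.07 to 0.12 and Jund -0.08 to 0.1, and for sh3 against sh1 and sh2 Fos -0.12 to 0.07 and Jund -0.13 to 0.04. Counts over all genes with stk moved most: 85 in CT26 became 14 with no filter, 133 at 5 FPKM, 227 with all libraries in 1 model and 4 with the block; 175 in Hepa1-6 became 4, 473, 993 and 4. Under the block no other member call changed. Libraries of the same number correlated between -0.05 and 0.10, so the numbers do not pair them. No block was fitted where sh1 enters, whose columns carry no labelled number, and the planned length alternative was not run because the tables hold no length column.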

Other observations

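The control cultures of CT26 differed in level between the tables, which were made separately and differ in batch date, hairpin, DMSO and time in culture; these cannot be told apart, and no test was made. All 10 members were listed higher in CT26 shLucif than in CT26 DMSO, by a median of 0.73 on the log2(FPKM + 1) scale, against -0.02 for 11716 genes at 1 FPKM or more in either. Egr1 differed most, with 65.9, 79.8 and 77.3 FPKM with shLucif, against 6.03, 8.86 and 7.18 with DMSO, a log2 ratio of 3.17. Jund (1.38), Ier2 (1.38) and Junb (1.32) were at least doubled too, and 53.6% of 28 other immediate early genes were at least doubled, against 3.04% of all genes. In Hepa1-6, scramble over DMSO, 7 of 10 members were listed higher, with a median over the 10 of 0.21, against -0.02 for all genes. Of 27 other immediate early genes, 19 were listed higher, with a median of 0.10. There 0 of 10 members and 0.764% of all genes were at least doubled, and the largest member ratio was that of Egr1 (0.72). The share of all genes listed higher was not computed for either line. The rises of Jun and Egr1 with sh3 were measured against that shLucif group.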
